A study of Canis lupus familiaris with 8 samples.

Results

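CD4+ T cells of canine blood that carry the killer cell lectin-like receptor KLRK1 (ENSCAFG00000025596, the NKG2D receptor) were examined in 5' single-cell RNA sequencing data of sorted TCRαβ+ T cells. They were chosen by their raw transcript counts (unique molecular identifiers, UMIs), with at least 1 CD4 UMI, at least 1 KLRK1 UMI, no CD8A UMI and no FOXP3 UMI. This rule found 1113 of 31909 cells (3.49%). They came from 4 healthy Beagle dogs of 5, 7, 7 and 9 years, which had received routine vaccinations. Each dog gave 1 transcriptome library and 1 V(D)J library of T cell receptor sequences. The transcriptome libraries held 26904346 to 35661623 UMIs, with a median of 3599 to 3931.5 UMIs per retained cell. The KLRK1+ CD4+ cells were compared with 12082 CD4+ CD8A- cells without a KLRK1 UMI (KLRK1- CD4+ cells) and with 3792 KLRK1+ CD8A+ CD4- cells (KLRK1+ CD8A+ cells). All groups come from the same 4 libraries, so each dog served as its own control.

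NKG2D is an activating receptor that binds stress-induced ligands on infected or transformed cells and signals through the adaptor HCST (DAP10). In most mammals it is carried by NK cells and CD8+ T cells, whereas CD4+ T cells usually lack it unless they have been stimulated repeatedly. Cytotoxic CD4+ T cells are helper-lineage cells that have taken up parts of the killer programme, such as granzymes, perforin and the transcription factors TBX21 and EOMES.

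KLRK1 was found in a minority of CD4+ cells and in most CD8A+ cells. The KLRK1+ CD4+ cells made up 0.683% of the CD4+ CD8A- cells of dog 1 (25 of 3658; exact 95% confidence interval 0.443 to 1.01%), 10.6% in dog 2 (383 of 3629), 13.3% in dog 3 (361 of 2716) and 10.6% in dog 4 (344 of 3244). Dogs 2, 3 and 4 lay close together and dog 1 lay far below them. Dog 1 was the youngest dog and the only female, so age, sex and individual cannot be told apart. The mean over the 4 dogs was 8.78% ± 5.55 (SD, n = 4). In CD8A+ CD4- cells the KLRK1 share was 57.7% ± 4.59 (SD, n = 4), and dog 1, with 52.4%, was close to the other dogs there. Confidence intervals of shares cover counting error only.

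**Figure D1:**
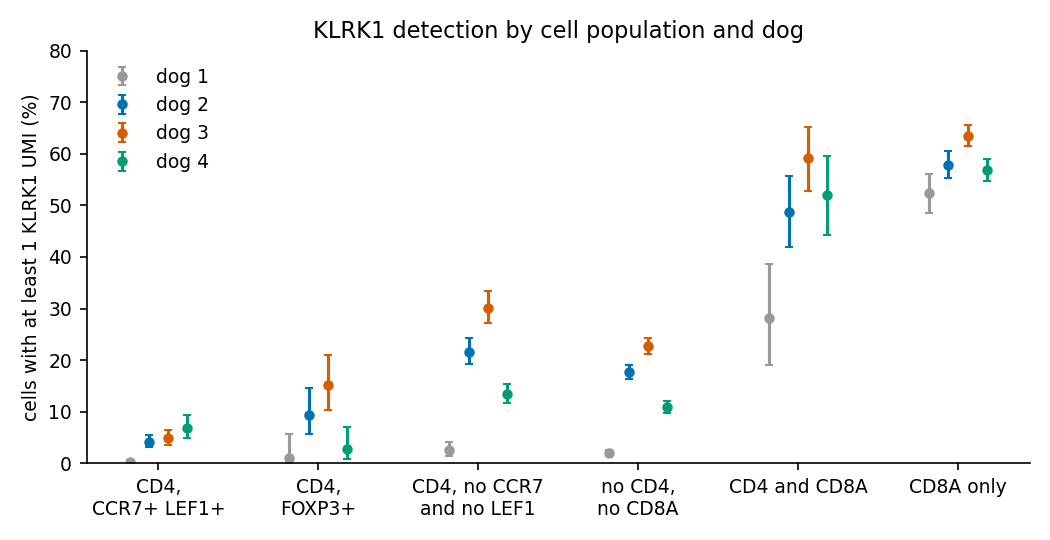
Share of cells with at least 1 KLRK1 UMI (y axis, %) in 6 cell populations (x axis), 1 point per dog with its exact 95% confidence interval. CD4+ cells with both CCR7 and LEF1 had the lowest mean share (3.99%), CD4+ cells with neither gene had 17.0% and CD8A+ cells 57.7%, and dog 1 was the lowest of the 4 in every population.

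Among CD4+ cells, KLRK1 was seen less often in cells with both CCR7 and LEF1 than in cells with neither gene. The former, here called naive-type, had KLRK1 in 3.99% ± 2.78 (SD, n = 4), and the latter in 17.0% ± 11.8 (SD, n = 4). CCR7 is also a gene of central memory cells, so the naive-type cells can include those. Cells were also thinned to 2000 UMIs and sorted into these kinds anew, which left out 0, 21, 9 and 8 shallower KLRK1+ CD4+ cells and 386, 400, 262 and 378 KLRK1- CD4+ cells of dogs 1 to 4. The shares were then 0.774% and 9.12% (means of 4 dogs). The share in naive-type cells is given as a reference for UMIs from free RNA, but whether these cells express the receptor was not tested. FOXP3+ CD4+ cells, which were left out by the rule, carried KLRK1 in 7.09% ± 6.45 (SD, n = 4). Detection rose with the depth of the cell, from 2.59% of CD4+ cells below 2000 UMIs to 18.6% of those with 6000 or more (means of 4 dogs). The KLRK1+ CD4+ cells were correspondingly deep, with a median of 5042 UMIs against 3869.5 in KLRK1- CD4+ cells and 3963 in KLRK1+ CD8A+ cells. A KLRK1- CD4+ cell is one in which the transcript was not found at its depth.

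The cells just inside and outside the threshold are described by their levels. Of the 1113 cells, 576 had exactly 1 KLRK1 UMI and 537 had 2 or more. GZMK stood at 296 CPM (counts of a gene per 1000000 UMIs of a set) in cells with 1 KLRK1 UMI and at 312 CPM in those with 2 or more, but at 67.9 CPM in cells with none (means of 4 dogs). In the same order CCR9 was at 132, 191 and 56.3 CPM and TBX21 at 44.0, 26.7 and 17.6 CPM. The naive-type gene LEF1 was at 171, 74.4 and 435 CPM, so that cells with 1 KLRK1 UMI stood between the others for this gene. These means weigh dog 1 like the other dogs, although it had 17 cells with 1 KLRK1 UMI and 8 with 2 or more. Over dogs 2 to 4, in the same order, GZMK averaged 315, 383 and 82.9 CPM and CCR9 163, 190 and 72.5 CPM. TBX21 then averaged 46.7, 35.6 and 21.4 CPM and LEF1 132, 82.9 and 357 CPM. Exactly 1 CD4 UMI was found in 43.0% of the KLRK1+ CD4+ cells and in 39.9% of the KLRK1- CD4+ cells (means of 4 dogs). A single CD8A UMI was found in a mean of 5.39% of the KLRK1+ CD8A+ cells. More than 1 productive TRB chain, which a droplet with several cells would show, was seen in 3.51% of the 854 KLRK1+ CD4+ cells that had a TRB, 3.85% of such KLRK1- CD4+ cells and 3.46% of such KLRK1+ CD8A+ cells, with all dogs pooled. As a mean over dogs the share of the KLRK1+ CD4+ cells was instead higher than that of the KLRK1- CD4+ cells, by 0.119 percentage points (exact permutation test over dogs, two-sided p = 0.875). Between 87 and 120 cell barcodes were shared by any 2 of the transcriptome libraries.

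The genes that accompany the name of this population, namely GZMK (a granzyme of memory-type killer cells), CCR9 (the receptor for the gut chemokine CCL25) and TBX21 (T-bet, the master regulator of type 1 immunity), were taken up as markers with results on these data known. Their values are therefore given as a description, with levels as CPM of the summed UMIs of all cells of a set in each dog. GZMK was at 193, 286, 372 and 404 CPM in KLRK1+ CD4+ cells of dogs 1 to 4 and at 22.8, 58.8, 84.1 and 106 CPM in their KLRK1- CD4+ cells. CCR9 was at 88.7, 186, 155 and 193 CPM against 7.80, 77.0, 38.0 and 102 CPM. TBX21 was at 24.2, 37.2, 40.2 and 45.1 CPM against 6.10, 16.4, 15.3 and 32.5 CPM. In each dog all of these genes were higher with KLRK1 than without, by 2.17 ± 0.07 (GZMK), 1.42 ± 0.12 (CCR9) and 1.01 ± 0.15 (TBX21) on the log2 scale (SE), but CCR9 and TBX21 of the KLRK1+ set in dog 1 fell within the range of the KLRK1- sets of the other dogs. The TBX21 value of dog 1 rests on 3 UMIs and its CCR9 value on 11 UMIs.

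The label of cytotoxic cells was checked against the killer transcripts, and the data went against it in part. GZMK was found in 23.6% of the KLRK1+ CD4+ cells, perforin (PRF1) in 10.8% and granzyme B (GZMB) in 5.60%, whereas in KLRK1+ CD8A+ cells the shares were 63.7% for GZMK, 37.9% for PRF1 and 69.4% for GZMB (all means over 4 dogs). Dog 1 gave 25 of the KLRK1+ CD4+ cells, 2 with GZMK and 0 with PRF1. With all dogs pooled, the shares of the KLRK1+ CD4+ cells were 28.2% for GZMK, 14.0% for PRF1 and 6.11% for GZMB. GZMA, another granzyme of killer cells, was close to absent with 13 UMIs in all 1113 cells together (1.65 CPM ± 1.66, against 234 ± 70.05 in KLRK1+ CD8A+ cells, SD, n = 4). The cells are called KLRK1+ CD4+ cells here.

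**Figure D2:**
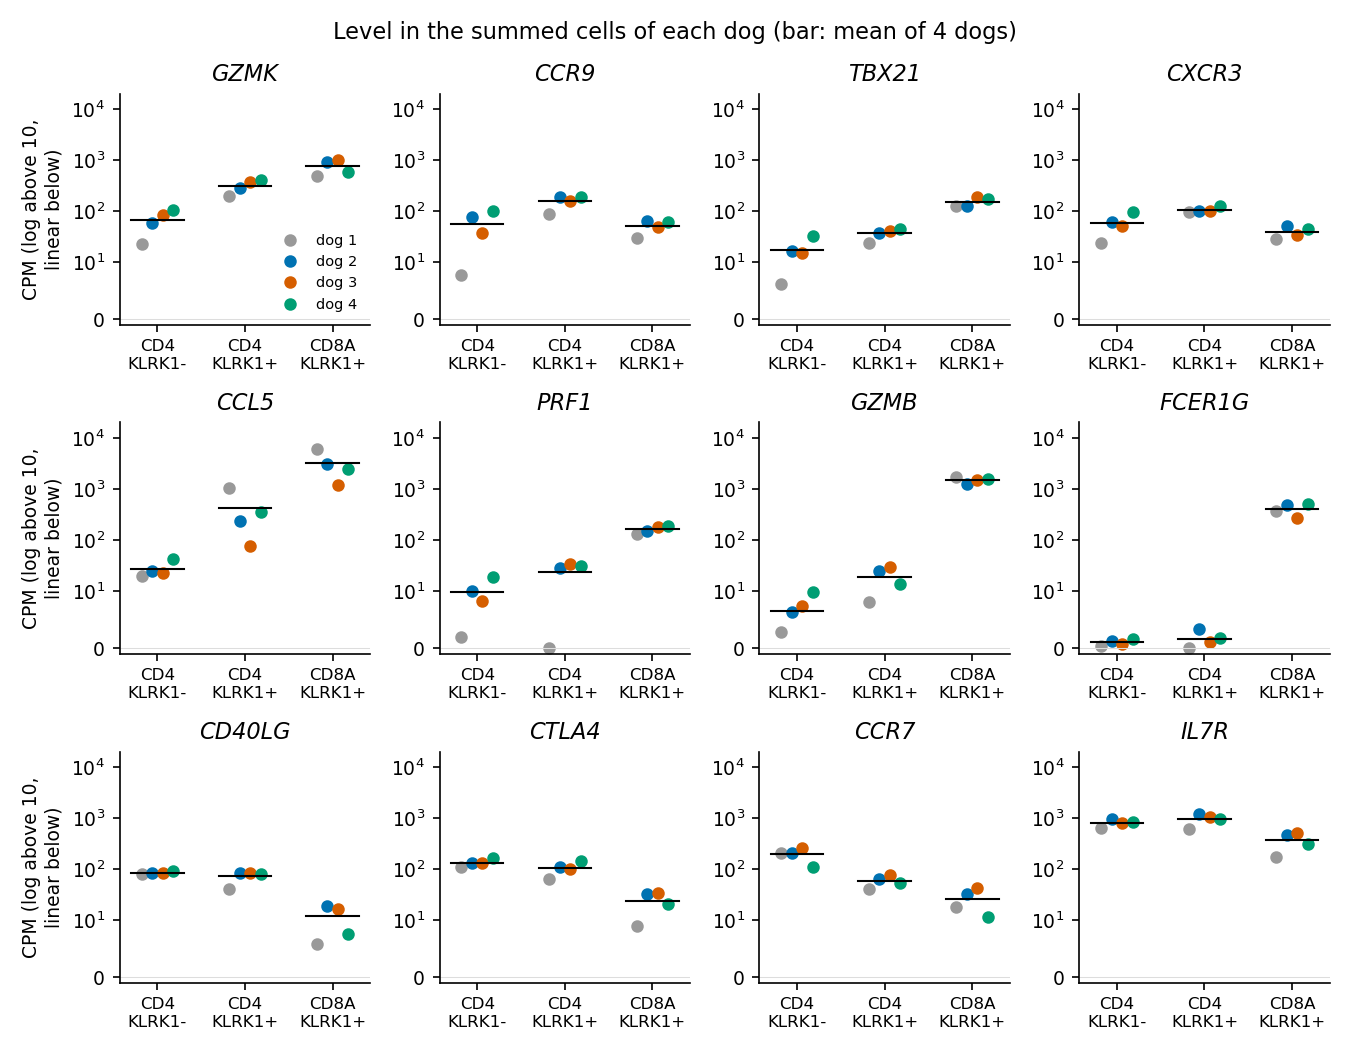
Level (y axis, CPM, logarithmic above 10 and linear below) of 12 genes in the summed cells of KLRK1- CD4+, KLRK1+ CD4+ and KLRK1+ CD8A+ sets (x axis), 1 point per dog, with a bar at the mean of 4 dogs. GZMK, CCL5, PRF1 and GZMB of the KLRK1+ CD4+ cells lie between the other sets on average, CD40LG and CTLA4 lie with the KLRK1- CD4+ cells, and CCR9 and CXCR3 have their highest mean in the KLRK1+ CD4+ cells.

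The first comparison asked what sets KLRK1+ CD4+ cells apart from the other CD4+ cells of the same dog. Genes were tested with edgeR's quasi-likelihood test on summed UMIs with the dog as a block, and p-values were adjusted by the Benjamini-Hochberg method over all 9425 genes tested. Of these, 516 were higher and 468 lower in KLRK1+ CD4+ cells at an adjusted p under 0.05, which makes 10.4% in either direction, 5.47% higher and 4.97% lower. KLRK1, CD4, CD8A and FOXP3 were not tested. Without the dog as a block, 29 genes passed. With KLRK1- CD4+ cells drawn to the same depth, 407 genes passed, and 385 of them were among the 984 with the same sign. Leaving out dog 1, with its 25 KLRK1+ cells, gave 866 genes, leaving out dog 2 gave 486 and leaving out dog 3 gave 640.

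Cytotoxic and chemokine genes were higher in the KLRK1+ CD4+ cells. Of 16 listed cytotoxic effectors 11 were tested, 7 were higher and none was lower (median log2 fold change 1.39, against -0.01 over all genes tested). These were GZMK, which was taken up as a marker with results known, CCL5, CCL4, PRF1, GZMB, FASLG (1.62 ± 0.24) and CST7 (0.80 ± 0.12). CCL4, a chemokine released by activated killer cells, was at 96.7, 75.3, 79.3 and 128 CPM against 9.00, 9.72, 11.9 and 48.2 CPM in KLRK1- CD4+ cells, and the sets did not overlap (log2 fold change 2.25 ± 0.16, SE, edgeR adjusted p = 3.6e-15). PRF1 was at 0, 28.5, 34.5 and 31.8 CPM against 1.98, 10.3, 8.36 and 18.7 CPM (1.39 ± 0.19, edgeR adjusted p = 3.1e-07), higher in 3 of 4 dogs. In dog 1 no PRF1 UMI was found in the KLRK1+ cells, where 3 UMIs would have amounted to 24.2 CPM, so its PRF1 level there was below what this depth can show. Granzyme B reached 8.06, 25.1, 29.9 and 13.9 CPM against 2.76, 6.28, 7.39 and 9.82 CPM, a rise from a very low level (1.58 ± 0.22).

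Most genes of granule exocytosis did not pass. Of 12 tested, RAB27A (0.54 ± 0.08), which docks the granules at the membrane, CTSD (0.57 ± 0.09) and CORO1A (0.26 ± 0.06) were higher and none was lower, with a median of 0.03. CORO1A did not pass with cells matched on depth (0.03).

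Some of these transcripts sat in few cells. CCL5 was at 1056, 233, 76.8 and 357 CPM in KLRK1+ CD4+ cells against 19.99, 24.5, 22.9 and 43.2 CPM, a log2 fold change of 3.29 ± 0.21 with no overlap. Yet 98 of the 1113 cells had a CCL5 UMI, and the 10 cells with the most of it held 57.8% of the 1381 UMIs. For GZMB that share was 49.6% and for CCL4 39.7%. For GZMK it was 17.1%, for PRF1 12.7% and for CCR9 5.44%, so that these transcripts were spread over more cells.

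Receptors shared with NK cells were also higher. Of 18 listed NK-type receptors 8 were tested, of which 6 were higher and none lower (median 1.5). KLRD1 (CD94) had the largest rise among the genes named by rule, with 8.06, 40.6, 125 and 69.4 CPM against 0.709, 5.24, 8.36 and 9.22 CPM (3.31 ± 0.16, edgeR adjusted p = 2.8e-20), and was found in 21.8% of the cells. The dog 1 value of KLRD1 rests on 1 UMI and fell within the range of the KLRK1- sets. KLRG1, a receptor of terminally differentiated T cells, rose from 29.1 ± 24.4 to 70.4 ± 31.5 CPM (SD, n = 4; 1.41 ± 0.15). CD244 (2.08 ± 0.26), SLAMF7 (1.59 ± 0.24) and NCR3 (1.98 ± 0.32, in 3 of 4 dogs, with no UMI in dog 1) were also higher, while CD226 (0.28 ± 0.09) passed with all dogs but not without dog 1 (0.27), dog 2 (0.24) or dog 3 (0.21). Of the NK cell marker list, KLRF1 had no UMI in the KLRK1+ CD4+ cells and NCR1 had 1, and apart from KLRD1 the 4 matched markers summed to 5.89 CPM, against 189 CPM in KLRK1+ CD8A+ cells.

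Of 12 listed genes of NKG2D signalling 10 were tested, and most did not pass. HCST, the adaptor through which NKG2D signals, was at 48.4, 52.2, 58.7 and 60.1 CPM against 27.8, 32.9, 35.7 and 48.2 CPM in KLRK1- CD4+ cells (0.58 ± 0.11). The lowest KLRK1+ value only just exceeded the highest KLRK1- value, and with cells matched on depth HCST did not pass (0.41, edgeR adjusted p = 0.056). Of 10 tested genes of NKG2D signalling, HCST, LCP2 (0.35 ± 0.06) and PIK3CD (0.18 ± 0.06) were higher and PIK3R1, a regulatory subunit of phosphoinositide 3-kinase, was lower (-0.57 ± 0.09), and the median of the list was 0.13. PIK3CD did not pass when any of the 4 dogs was left out (0.15 to 0.19).

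Th1 genes were higher as well. All 10 listed genes were tested, 8 were higher and none was lower, with a median of 0.68. IL12RB2, the inducible chain of the receptor for interleukin 12, was at 40.3, 87.9, 71.6 and 150 CPM against 3.83, 36.7, 15.4 and 63.1 CPM (1.51 ± 0.12, edgeR adjusted p = 1.6e-13). The sets overlapped across dogs for IL12RB2, but within each dog the KLRK1+ cells were higher. IL18R1, a subunit of the interleukin 18 receptor, was at 137 to 193 CPM against 53.4 to 116 CPM without overlap (1.09 ± 0.09). IFNG (1.28 ± 0.19), IL18RAP (0.76 ± 0.14) and the chemokine receptor CXCR3 (0.72 ± 0.10) were higher as well. IFNG was found in 6.74% of the cells, and the 10 highest cells held 34.9% of its UMIs.

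Among 10 tested effector transcription factors, EOMES, TBX21, HOPX and ZEB2 were higher and none was lower (median 0.18), a count that includes the marker TBX21. EOMES, which drives the killer programme together with TBX21, was at 16.1, 14.0, 15.5 and 14.5 CPM against 0.283, 1.5, 1.85 and 2.71 CPM (2.96 ± 0.29, edgeR adjusted p = 1.6e-10). Its levels in KLRK1+ cells were nearly equal in all dogs, though the dog 1 value rests on 2 UMIs. ZEB2 (1.67 ± 0.44) lost its call without dog 2 (1.46) or dog 4 (1.68), and HOPX was higher by 0.37 ± 0.06.

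Homing receptors moved in both directions. Of 18 tested, 7 were higher, the marker CCR9 among them, and 4 lower (median 0.04). CCR9 and the integrin pair ITGA4 (0.60 ± 0.08) and ITGB7 (0.57 ± 0.06), whose product binds the gut addressin, were higher, as was ITGB2 (0.37 ± 0.06). ITGB7 was at 339, 306, 307 and 469 CPM against 140, 219, 203 and 337 CPM. CCR2 (0.86 ± 0.17) and CX3CR1 (1.37 ± 0.40), each higher in 3 of 4 dogs, passed with all dogs, but CCR2 did not without dog 3 (0.45), nor CX3CR1 without dog 2 (1.34) or dog 3 (1.21). On the other side stood ITGB1, the partner of ITGA4 in the integrin for inflamed tissue, with 40.3, 106, 163 and 193 CPM against 168, 305, 310 and 363 CPM (-1.10 ± 0.08, edgeR adjusted p = 2e-14). It was lower in each dog, with some overlap across dogs. With 1 cell kept per clone of cells with the same TRB chain, ITGB1 still passed, at -0.58. The skin homing receptors CCR4 (-2.44 ± 0.31, in 3 of 4 dogs) and CCR10 (-2.50 ± 0.43, in 4 of 4 dogs) were lower, at 17 and 8 UMIs in all KLRK1+ CD4+ cells, and CXCR4 was lower in 4 of 4 dogs (-0.43 ± 0.06).

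Genes of naive and central memory T cells fell. Of 15 listed genes 12 were tested, 11 were lower and none was higher (median -0.98). CCR7, the receptor for entry into lymph nodes, was at 40.3, 65.2, 75.2 and 53.2 CPM against 211, 206, 260 and 111 CPM, and the sets did not overlap (-1.57 ± 0.09). LEF1 (-1.70 ± 0.11), ID3 (-1.35 ± 0.10) and SAMHD1 (-1.66 ± 0.14) fell too, as did TCF7 (-0.49 ± 0.07). Genes of this list were not absent from every cell, since 11.6% of the KLRK1+ CD4+ cells still carried both CCR7 and LEF1 UMIs. Of the memory and survival genes IL2RB (0.66 ± 0.07), CD2 (0.33 ± 0.06), IL7R (0.27 ± 0.06) and CD7 (0.28 ± 0.07) were higher among 12 tested and none was lower (median 0.19). IL7R did not pass without dog 2 (0.22) or dog 3 (0.17).

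Of 10 tested genes of helper function and costimulation none was higher and 3 were lower (median -0.25). CD40LG, through which helper T cells activate B cells, was at 40.3, 86.0, 83.5 and 82.1 CPM against 80.3, 84.3, 82.6 and 93.2 CPM, and the difference was within its error (-0.06 ± 0.09, edgeR adjusted p = 0.80). CD28 (0.06 ± 0.07) and ICOS (0.07 ± 0.07) also differed by about their standard errors, and ICOS was at -0.06 with cells matched on depth. Among the lower ones were TNFRSF4 (OX40, -1.80 ± 0.27) and CD27 (-0.65 ± 0.08). Of 5 tested genes of the regulatory T cell list (median -0.28), TNFRSF18 (-1.35 ± 0.20), IKZF2 (-0.97 ± 0.19) and CTLA4 (-0.28 ± 0.08) were lower, against a comparison set in which a mean of 4.94% of cells had FOXP3. When FOXP3+ cells were left out of that set, IKZF2 (-0.40) and CTLA4 (-0.15) no longer passed, nor did the proliferation gene MKI67 (-0.59 ± 0.15 with them, -0.09 without). Of 8 tested proliferation genes 3 were lower and none higher (median -0.32). Besides MKI67 these were STMN1 (-0.36 ± 0.08) and TOP2A (-1.34 ± 0.35). STMN1 did not pass without dog 1 (-0.33) or dog 3 (-0.17). TOP2A did not pass without dog 3 (-1.26) or dog 4 (-1.11), nor when FOXP3+ cells were left out of the comparison set (-1.03).

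Of 8 tested inhibitory receptors and exhaustion genes CD96 (1.02 ± 0.13) was higher and none was lower (median 0.07). Of 6 MHC class II genes DLA-DQA1 (0.43 ± 0.06) and DLA-DMB (0.42 ± 0.07) were higher and DLA-DOA (-2.54 ± 0.52) was lower (median 0.16). Among genes with a symbol, 1 direction in all 4 dogs and at least 20 CPM in the set where they were higher, the 12 with the largest rise also included C9H17orf64 (2.30 ± 0.13), the adaptor CLNK (1.49 ± 0.20), GPR55 (1.35 ± 0.17), a receptor for lipids, at 29.2 against 10.7 CPM, VSTM1 (1.23 ± 0.16), at 34.0 against 15.4 CPM, and ZBTB16 (1.35 ± 0.19), the transcription factor PLZF of innate-like T cells, at 23.1 ± 5.65 against 8.65 ± 3.80 CPM (SD, n = 4). Under the same limits, the 12 with the largest fall were ADAM19 (-3.08 ± 0.21), RFLNB (-2.90 ± 0.25), ACTN1 (-2.56 ± 0.12), CSTA (-2.37 ± 0.09), RGS10 (-2.16 ± 0.13), SLCO3A1, CCDC3, TXK, LEF1, SAMHD1, TSPAN5 and CTPS1. CSTA, a cysteine protease inhibitor, went from 215 to 44.5 CPM on average, and ACTN1, which links integrins to actin, from 113 to 24.2 CPM.

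**Figure D3:**
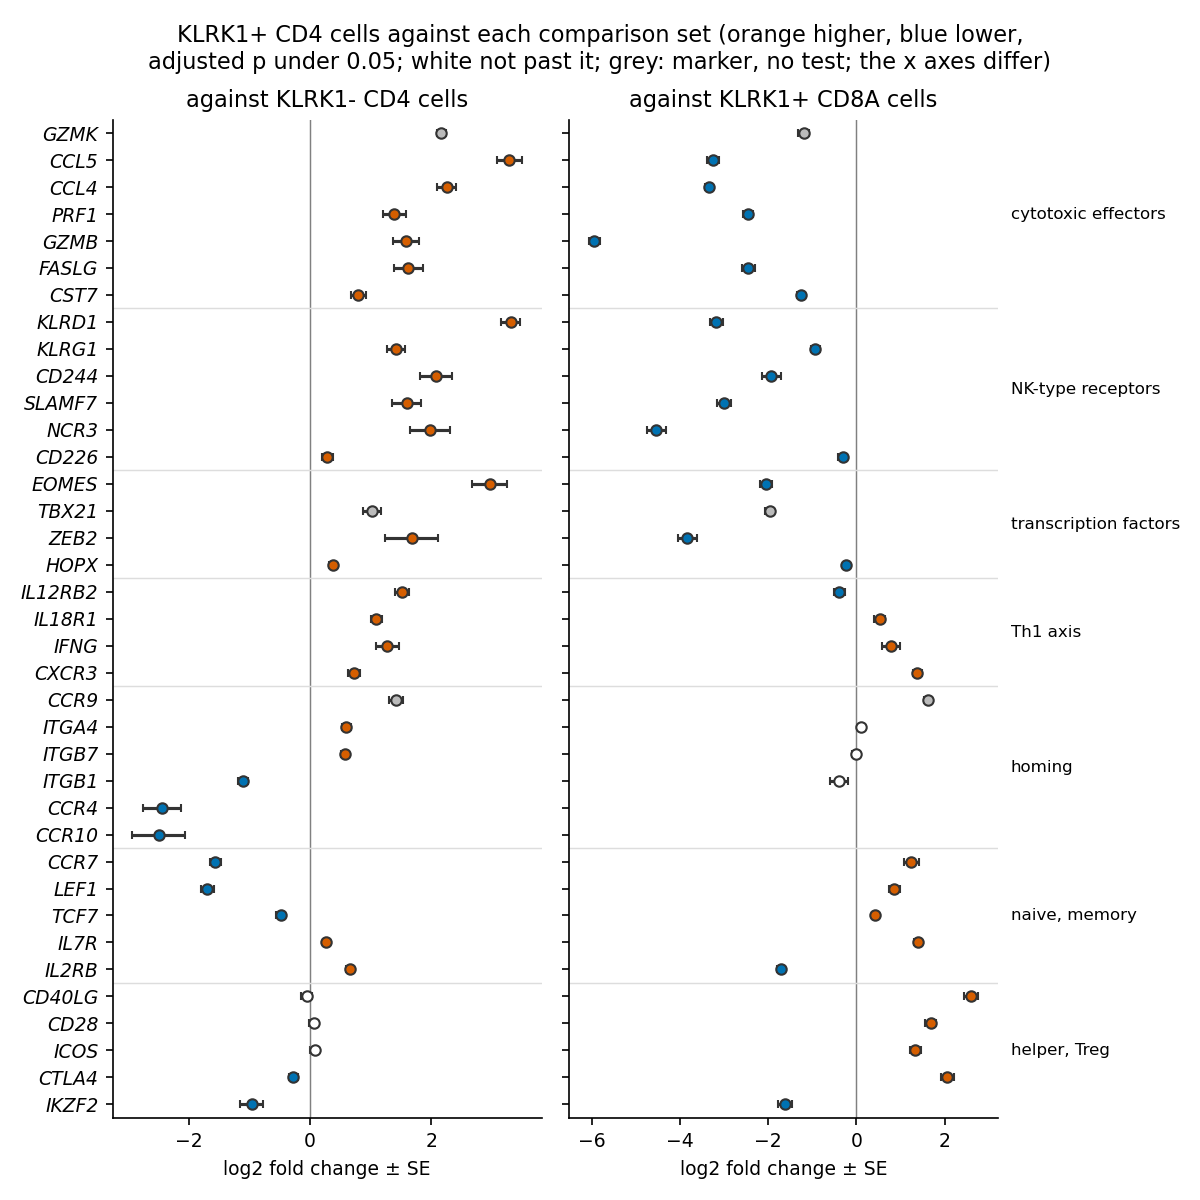
Log2 fold change with its standard error (x axis) of genes of the lists (y axis) in KLRK1+ CD4+ cells against KLRK1- CD4+ cells (left) and against KLRK1+ CD8A+ cells (right), fitted with edgeR on 4 dogs; orange and blue points passed an adjusted p of 0.05, white ones did not, grey ones are the markers given without a test, CCR4 and CCR10 were not tested on the right, and the x axes differ. The 7 cytotoxic effectors plotted lie to the right of 0 on the left and to the left of 0 on the right.

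Markers of other blood cells were examined in the same sums. Of 9 monocyte markers 7 were matched, and S100A8 made up nearly all of their level, with 2992 CPM in KLRK1+ CD4+ cells, 2139 CPM in KLRK1- CD4+ cells and 1495 CPM in KLRK1+ CD8A+ cells (means of 4 dogs). The other 6 summed to 0.515 CPM in the KLRK1+ CD4+ cells, where CSF1R, CYBB and S100A12 were among those with no UMI. S100A8 was higher than in KLRK1- CD4+ cells (0.48 ± 0.07), but with cells matched on depth the difference was 0.14 and did not pass. Of 6 B cell markers CD79A stood at 9451 CPM in KLRK1+ CD4+ cells and at 9689 CPM in KLRK1- CD4+ cells, whereas MS4A1, PAX5 and BLNK had no UMI in the former. Platelet and red cell markers summed to 0.691 CPM and the matched γδ T cell markers to 0.507 CPM.

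The second comparison set KLRK1+ CD4+ cells against KLRK1+ CD8A+ cells of the same dog, the cells that usually carry NKG2D. Of 8293 genes tested, 677 were higher and 574 lower in the CD4+ cells (15.1% in either direction, 8.16% higher and 6.92% lower; edgeR, adjusted p under 0.05). All but 2 of the 12 tested cytotoxic effectors passed in a direction, 9 lower and SRGN (serglycin, the granule core proteoglycan, 0.49 ± 0.07) higher, with a median of -2.45 against 0.00 over all genes tested. GZMK had the smallest distance of the granzymes, with 193, 286, 372 and 404 CPM against 485, 930.2, 1003 and 581 CPM (-1.20 ± 0.12). It was lower in each dog and the sets did not overlap. GZMB was at 8.06 to 29.9 CPM against 1226 to 1716 CPM (-5.94 ± 0.13, edgeR adjusted p = 5e-18), CCL5 was lower by -3.24 ± 0.14 and PRF1 by -2.46 ± 0.12.

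The NK-type receptors were all lower than in the CD8A+ cells, 11 of 11 tested (median -3.69). FCER1G, a signalling adaptor of NK receptors, was at 1.54 ± 1.42 CPM against 408 ± 108 (SD, n = 4; -7.62 ± 0.15), KLRB1 at 6.94 CPM against 281 CPM (-5.14 ± 0.15), and NCR3 at 7.02 CPM against 261 CPM (-4.53 ± 0.21). KLRD1 was at 60.8 CPM against 661 CPM (-3.18 ± 0.15), while KLRG1 (-0.94 ± 0.10) was nearer to the CD8A+ cells. Of the effector transcription factors 6 of 10 were lower, including ZEB2 (-3.83 ± 0.22), EOMES (-2.04 ± 0.14) and TBX21 (-1.96 ± 0.10), and MAF (1.48 ± 0.25) and BHLHE40 (0.57 ± 0.09) were higher (median -0.53). Under the limits given above (1 direction in all 4 dogs and at least 20 CPM), the 12 largest falls also included GZMA (-6.58 ± 0.21), ITGAM (-5.87 ± 0.19), CTSW (-4.68 ± 0.10), FGR (-5.0 ± 0.35) and the elastase inhibitor PI3 (-6.37 ± 0.29, with all of its 6 UMIs in dog 3, and -10.5 without dog 3, a fitted value with no UMI left in the KLRK1+ CD4+ cells). RAB31 had no UMI in the KLRK1+ CD4+ cells and 381 in the KLRK1+ CD8A+ cells, which makes it at least 45.3-fold lower when 3 UMIs over all KLRK1+ CD4+ cells are taken as the floor. S1PR5 had 1 UMI against 497, a ratio of 177 (95% counting interval 31.7 to 7015), and PIK3AP1 3 against 346, a ratio of 41.1 (14.0 to 200.4).

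Genes of the helper lineage stood on the other side. All 8 tested genes of the helper and costimulation list passed, 6 higher and 2 lower (median 1.29). CD40LG was at 40.3, 86.0, 83.5 and 82.1 CPM against 5.74, 19.1, 16.8 and 7.51 CPM, with no overlap (2.60 ± 0.17, edgeR adjusted p = 3.2e-10). CD28 (1.69 ± 0.13), ICOS (1.34 ± 0.12), ZBTB7B (ThPOK, the factor that fixes the CD4 lineage, 1.24 ± 0.23) and the regulatory T cell gene CTLA4 (2.06 ± 0.15) were likewise higher. The lower ones were BCL6 (-1.40 ± 0.30) and CD27 (-0.37 ± 0.09), and CD27 did not pass without dog 2 (-0.33) or dog 3 (-0.29). TOX2, known from follicular helper cells and counted here in the list of exhaustion genes, was higher by 2.87 ± 0.27 and IL7R by 1.39 ± 0.08, while IL2RB, a receptor chain for interleukins 2 and 15, was lower (-1.71 ± 0.08). Under the same limits, which TOX2 missed at 18.3 CPM, the 12 largest rises were those of ZC3H12D (3.05 ± 0.15), CD52 (2.70 ± 0.17), CD40LG, CDH1 (2.40 ± 0.25), MGAT5, CTLA4, TIAM1, S100A2, GSDMA, CALY, EFHC2 and GALNT17 (1.73 ± 0.13). CALY moved from 1.85 to 2.81 when dog 3 was left out. CDH1 is E-cadherin and CD52 a short surface glycoprotein of lymphocytes.

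The other lists were counted in the same comparison. Naive and central memory genes were higher in 7 and lower in 2 of 11 (median 0.42), with LEF1 (0.86 ± 0.13) not past the threshold at 2 or more KLRK1 UMIs (0.30). Memory and survival genes were higher in 7 and lower in 2 of 11 (median 0.50), and Th1 genes higher in 4 and lower in 3 of 10 (median 0.26), of which IL18R1 (0.52 ± 0.13) did not pass without dog 2 (0.48) or dog 4 (0.30). Homing receptors were higher in 4 and lower in 7 of 17 (median -0.02). Of 7 inhibitory receptors and exhaustion genes TOX2 was higher and 6 were lower (median -1.70), among them HAVCR2 (TIM-3, -2.59 ± 0.36) and TOX (-0.68 ± 0.10). TOX did not pass with 1 cell per TRB clone (-0.39). Of the regulatory T cell list 3 of 4 genes were higher and 1 lower (median 1.47). Genes of NKG2D signalling were higher in 1 and lower in 3 of 10, granule exocytosis genes higher in 1 and lower in 2 of 11, MHC class II genes lower in 1 of 6, proliferation genes lower in 4 of 7 and genes of innate-like CD8+ cells higher in 1 and lower in 3 of 5.

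CCR9 and CXCR3 had their highest mean in the KLRK1+ CD4+ cells. Against KLRK1+ CD8A+ cells CCR9 was at 88.7, 186, 155 and 193 CPM against 29.3, 65.4, 49.6 and 61.4 CPM, without overlap (1.63 ± 0.08). CXCR3 was at 96.7, 100.4, 99.9 and 128 CPM against 28.1, 51.4, 34.7 and 45.4 CPM, again without overlap (1.38 ± 0.11). CX3CR1, typical of blood-resident killer cells, was lower instead (-3.18 ± 0.21). IFNG was higher by 0.78 ± 0.21 in 3 of 4 dogs, but not without dog 2 (0.72), dog 3 (0.67) or dog 4 (0.79), and IL12RB2 was slightly lower (-0.39 ± 0.12), a call that was lost without dog 1 (-0.34), dog 2 (-0.46) or dog 3 (-0.24).

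Whether KLRK1 goes with other genes in CD4+ cells than in CD8A+ cells was tested as the difference of the KLRK1 contrasts, (KLRK1+ minus KLRK1- CD4+) minus (KLRK1+ minus KLRK1- CD8A+). In KLRK1- CD8A+ cells, too, the transcript was only not found at their depth, a median of 3342 UMIs against 3963 with KLRK1. The part of missed detection in these differences was not tested. Of 9204 genes tested 14 passed (0.152%), 11 with a larger (0.12%) and 3 with a smaller contrast (0.0326%) in CD4+ cells. Among the larger ones with 1 direction in all 4 dogs were KLRD1 (2.75 ± 0.42), EOMES (2.72 ± 0.39), CCL5 (2.71 ± 0.43), CCL4 (1.99 ± 0.35) and ADGRG1 (1.90 ± 0.32), an adhesion receptor of killer cells. KLRD1 was far more abundant in CD8A+ cells, at 661 CPM with and 385 CPM without KLRK1. In KLRK1- CD4+ cells KLRD1 was at 5.88 CPM and EOMES at 1.58 CPM, so their CD4+ contrasts start from low levels. ADGRG1 was at 103 and 98.0 CPM there and at 10.7 and 2.61 CPM in CD4+ cells. CCL5 (1.67), ADGRG1 (1.82) and RGS1 (-0.46) did not pass with cells matched on depth. That match was incomplete for KLRK1- CD8A+ cells, of which 97, 83 and 50 were missing in dogs 2 to 4. Their medians were 4681.5, 4630 and 4542.5 UMIs, against 5206, 5120 and 4869.5 in the KLRK1+ CD4+ cells. The smaller ones were TXK (-1.75 ± 0.24), PIK3R1 (-0.99 ± 0.16) and RGS1 (-0.81 ± 0.14). TXK, a T cell kinase, stood at 17.8 CPM with and 60.0 CPM without KLRK1 in CD4+ cells but at 63.5 and 59.9 CPM in CD8A+ cells. Without dog 2, 1 gene passed and without dog 3, 3 did, and none passed without the dog as a block, where 372 genes had an unadjusted p under 0.05 (with DESeq2 and the dog as a block 18 passed, 13 of them shared with the same sign). KLRD1 did not pass with DESeq2 (2.45, adjusted p = 0.254).

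Within the KLRK1+ CD4+ cells, GZMK and CCR9 were found mostly in separate cells. CCR9 was found in 35.2, 29.8 and 20.4% of the GZMK+ cells of dogs 2, 3 and 4 and in 57.3, 48.7 and 61.4% of their GZMK- cells. The share was lower with GZMK in each of these dogs, and dog 1 had 2 GZMK+ cells, neither with CCR9. The cells with and without GZMK were of like depth (medians 4997 and 5061 UMIs), but those with GZMK alone had a median of 4621 UMIs and those with CCR9 alone one of 5437, and the part of depth in the split was not tested. KLRG1 went the other way and was found in 49.0% of GZMK+ and 17.1% of GZMK- cells. By these genes 225 cells had GZMK without CCR9, 439 CCR9 without GZMK, 89 both and 360 neither. The split was drawn after the values had been seen and is described without a test. In KLRK1- CD4+ cells the dogs differed in direction, with CCR9 in 2.20, 10.9, 13.5 and 16% of GZMK+ cells and in 1.95, 17.2, 7.64 and 24.3% of GZMK- cells of dogs 1 to 4. In KLRK1+ CD8A+ cells CCR9 was less frequent with GZMK in 4 of 4 dogs (4.88% with and 31.6% without, all dogs pooled).

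Both kinds differed in further genes. ITGB1 averaged 347 ± 109 CPM in cells with GZMK alone and 44.8 ± 15.2 CPM in cells with CCR9 alone (SD, n = 3, dogs 2 to 4, here and below). CCL4 was at 355 ± 140 CPM against 31.9 ± 17.8 CPM, GZMB at 60.8 ± 18.4 against 10.9 ± 13.1 CPM, and EOMES at 44.8 ± 17.9 against 6.22 ± 2.61 CPM. The ranges over these dogs did not overlap for any of these genes. The cells with CCR9 alone had more ITGB7 (415 ± 103 against 245 ± 97.4 CPM), IL7R (1194 ± 89.2 against 801 ± 112 CPM), CD40LG (88.7 ± 6.50 against 54.9 ± 22.6 CPM) and IFNG (29.3 ± 4.41 against 12.9 ± 7.48 CPM). The lowest value with CCR9 alone lay above the highest with GZMK alone for all of these, for ITGB7 by a narrow margin (346 against 344 CPM). CXCR3 was at 111 ± 17.0 CPM with CCR9 alone and at 100.4 ± 14.6 CPM with GZMK alone. TBX21 was at 34.6 ± 8.32 and 50.5 ± 6.91 CPM in the same order.

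T cell receptor sequences, which had no part in the choice of the cells, showed how many of them belong to expanded clones. A clone was taken as the cells of a dog with the same TRBV gene, TRBJ gene and nucleotide junction, and as expanded when it held at least 2 cells of any kind. Of the KLRK1+ CD4+ cells with a single TRB, 11.1% (2 of 18), 72.6% (188 of 259), 71.5% (203 of 284) and 84.0% (221 of 263) were in expanded clones in dogs 1 to 4. In KLRK1- CD4+ cells the shares were 4.81, 25, 14.8 and 44.3%, and in KLRK1+ CD8A+ cells 73.9, 66.8, 81.4 and 84.0%. The KLRK1+ share was higher than the KLRK1- share in 4 of 4 dogs, by a mean of 37.6 percentage points (exact permutation test over dogs, two-sided p = 0.125, the smallest p that 4 dogs allow), and by 48.0 points without dog 1. Against KLRK1+ CD8A+ cells the mean difference was -16.7 points (exact permutation test, p = 0.375), and it was -1.38 points without dog 1.

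**Figure D4:**
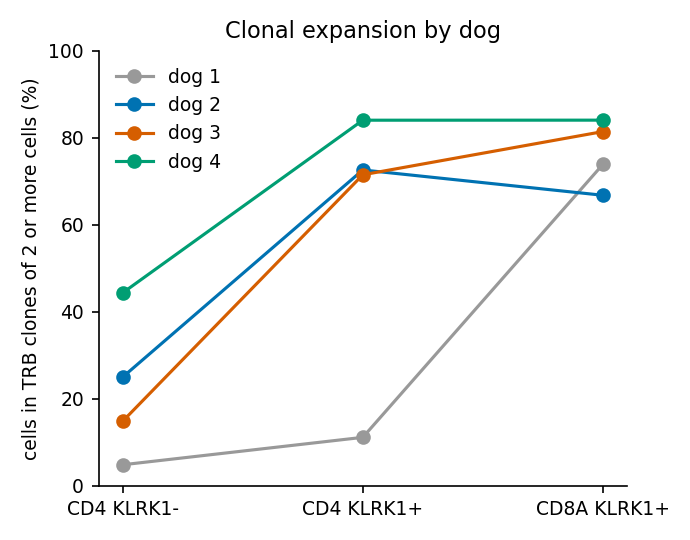
Share of cells in TRB clones of at least 2 cells (y axis, %) in KLRK1- CD4+, KLRK1+ CD4+ and KLRK1+ CD8A+ cells (x axis), with 1 line per dog. In dogs 2, 3 and 4 the KLRK1+ CD4+ cells lie between 71.5 and 84.0%, and in dog 1 at 11.1%, which rests on 18 cells.

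The 824 KLRK1+ CD4+ cells with a single TRB formed 441 clones, and 99 of these had 2 or more of them. From the 5 clones with the most KLRK1+ CD4+ cells, 4 are shown by junctions of their receptor chains, to show what the cells of a clone share. For clone 2 the junction of the TRA chain found with its TRB is given. Capitals mark the first and the last codon of the junction, which encode the conserved cysteine and the conserved phenylalanine or tryptophan.
Clone 1, dog 3, TRBV15 and TRBJ1-2: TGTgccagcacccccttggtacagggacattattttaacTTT
Clone 1, dog 3, TRAV9-10 and TRAJ33: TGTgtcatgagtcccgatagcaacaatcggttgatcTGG
Clone 2, dog 4, TRAV12 and TRAJ21: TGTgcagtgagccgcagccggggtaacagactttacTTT
Clone 3, dog 4, TRBV3-1 and TRBJ1-3: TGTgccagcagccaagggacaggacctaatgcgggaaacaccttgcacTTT
Clone 3, dog 4, TRAV9-8 and TRAJ25: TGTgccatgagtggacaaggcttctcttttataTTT
Clone 4, dog 4, TRBV28 and TRBJ1-1: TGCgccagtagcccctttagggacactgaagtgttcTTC
Clone 4, dog 4, TRAV43-1 and TRAJ31: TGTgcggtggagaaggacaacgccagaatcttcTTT

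Clone 1 held 86 cells, 32 of them KLRK1+ CD4+, and clone 2 held 78 cells, 23 of them KLRK1+ CD4+. In both, CCR9 was frequent (54 of 86 and 51 of 78 cells) and GZMK rare (3 and 2 cells). Clone 3 was of the opposite kind, with GZMK in 41 of its 47 cells and in all of its 19 KLRK1+ CD4+ cells, KLRG1 in 42 cells, CCR9 in 15 and CCR7 in none. Clone 4, with 42 cells, again had CCR9 in 28 and GZMK in 1. It held 16 KLRK1+ CD4+ cells, as many as a clone of dog 2 that is not shown, in which 6 of the 16 had GZMK and 9 had CCR9, and which had 6 CD8A+ cells among its 41. CCR7 was kept in 42 of the 86 cells of clone 1 and 30 of the 78 cells of clone 2. In clone 4 it was found in 4 of 42 cells, and in the clone of dog 2 in 0 of 41. This gene of naive and central memory cells was thus present in some large clones and rare or not found in others. Cells with exactly 1 TRA chain all had the same TRA within each of clones 1 to 4. These were 78 of 86 cells in clone 1, 78 of 78 in clone 2, 39 of 47 in clone 3 and 39 of 42 in clone 4. Cells with no TRA or with more than 1 were not compared.

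The larger clones were counted in the same way. Of 29 clones with at least 5 KLRK1+ CD4+ cells, all from dogs 2, 3 and 4, 14 had no GZMK in any of these cells and 2 had it in more than 50% of them. CCR9 was found in more than 50% of them in 21 clones, and no clone had both genes above 50%. These 29 clones held 37.3% of the KLRK1+ CD4+ cells with a single TRB. Of the cells with CCR9 but no GZMK 90.2% were in expanded clones, and of those with GZMK but no CCR9 60.2%, in pools of all dogs. The share was 78.7% in cells with both genes and 62.3% in cells with neither.

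**Figure D5:**
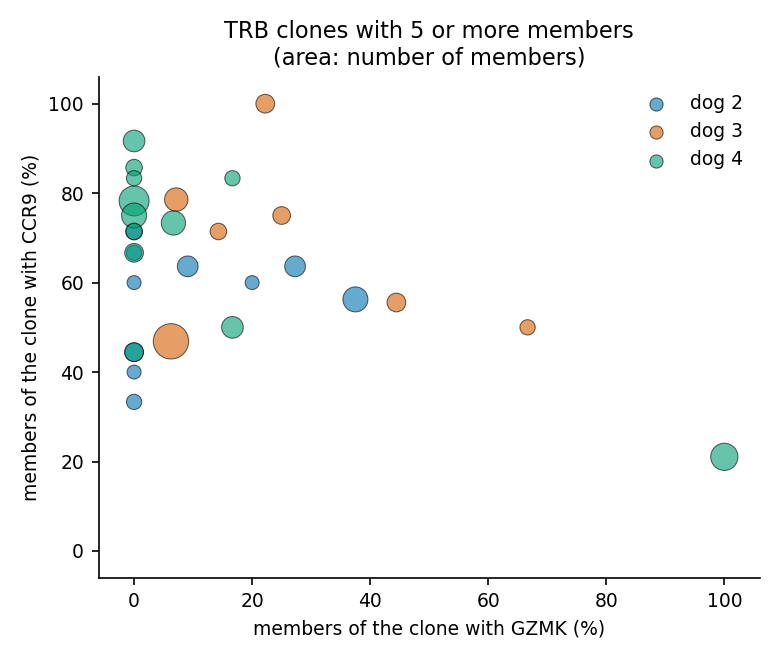
Share of the KLRK1+ CD4+ cells of a clone with GZMK (x axis, %) and with CCR9 (y axis, %) in the 29 TRB clones with 5 or more such cells; each circle is a clone, its area follows the number of KLRK1+ CD4+ cells and its colour the dog. Most clones lie at the left with CCR9, and the clone at the right edge is the one in which all 19 cells had GZMK.

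The other cells of the same clones, or clone mates, were examined next. KLRK1 itself was not compared among the CD4+ mates, because CD4+ mates that carry it are, unless they have FOXP3, themselves cells chosen by the rule. GZMK among the CD4+ CD8A- mates is given as a description, since many of these mates are chosen cells as well. It was found in 14.7, 12.04 and 15.8% of the mates of KLRK1+ CD4+ cells and in 10.9, 11.9 and 4.43% of those of KLRK1- CD4+ cells in dogs 2, 3 and 4. With each clone counted once, so that large clones weigh no more than small ones, the shares were 13.7, 38.2 and 20.4% against 8.42, 30.5 and 13.1%. Dog 1 had 1 such mate pair on the KLRK1+ side. Cells with and without a KLRK1 UMI occurred in the same clones, and of the 441 clones with a KLRK1+ CD4+ cell 157 (35.6%) also held KLRK1- CD4+ cells. Clones of a single cell, which cannot hold both kinds, are among the 441. Those with at least 2 cells numbered 2, 77, 79 and 73 in dogs 1 to 4. Of these, 1, 54, 43 and 59 held KLRK1- CD4+ cells.

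Mates with CD8A were less common. Of the clone mates of KLRK1+ CD4+ cells with CD4 or CD8A, 10.2, 11.2 and 0.850% were CD8A+ in dogs 2, 3 and 4, against 1.92, 6.02 and 0.991% for KLRK1- CD4+ cells. In dog 1 the shares were 0.0%, which rests on 1 mate pair, and 9.82%. The mean difference over 4 dogs was 0.886 points (exact permutation test, two-sided p = 1.0), and it was 4.46 points without dog 1, -1.59 points without dog 2 and -0.55 points without dog 3. A clone gives more mate pairs the larger it is, and when each clone counted once the mean difference was 3.36 points (exact permutation test, two-sided p = 0.5). For KLRK1+ CD8A+ cells the share was 96.9 to 99.9%. Of the 441 clones 40 (9.07%) also held a CD8A+ CD4- cell, and of the 7747 clones of KLRK1- CD4+ cells 39 (0.503%) did, though the former clones are larger. In all, 161 of the 824 cells (19.5%) belonged to such clones, and 10 (1.21%) to clones with more CD8A+ than CD4+ cells. Among cells with exactly 1 TRB, 792 genes passed between KLRK1+ and KLRK1- CD4+ cells, and 739 passed when the cells of clones that held a CD8A+ cell were left out as well (edgeR). Of these 739 genes, 658 were among the 984 with the same sign.

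Receptor gene usage was compared over clones. Among 39 TRBV and TRAV genes none passed an adjusted p of 0.05 against KLRK1- CD4+ cells (edgeR with the dog as a block, 0.0% called). The gene with an unadjusted edgeR p under 0.05 was TRBV15, with a log2 fold change of -1.28 and an edgeR adjusted p of 0.279. Counted over cells, 32 of which belong to clone 1 alone, it was at -0.33 (edgeR adjusted p = 0.932). The most used genes were TRBV16 with 21.8% ± 1.62 of TRB clones against 18.8% ± 2.04, TRAV43-1 with 16.1% ± 2.92 of TRA clones against 17.6%, and TRBV7 with 15.5% ± 2.34 against 13.1% ± 1.20 (SD, n = 4). The chain of MAIT-like cells, TRAV9-11 joined to TRAJ28, was found in 0 of 880 KLRK1+ CD4+ cells with a TRA, which allows a share of up to 0.341%, in 0.110% of KLRK1- CD4+ cells and in 18.9% of KLRK1+ CD8A+ cells. The TRB junctions were of a mean length of 14.2 ± 0.191 amino acids in KLRK1+ CD4+ cells, 14.4 ± 0.0610 in KLRK1- CD4+ cells and 14.7 ± 0.244 in KLRK1+ CD8A+ cells (SD over 4 dogs).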

How the data were processed

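Sorted blood T cells with an αβ receptor, 1 sample from each of 4 dogs, were sequenced with 10x Genomics 5' chemistry. The authors made the deposited UMI counts with Cell Ranger 5.0.1 on the CanFam 3.1 genome, without pooling dogs. The deposited V(D)J files list the rearrangements of each cell, of which the V and J genes, the nucleotide junction and its deposited length in amino acids (no further unit) were used. The gene list of dog 2 named the rows of all 4 matrices, because that of dog 1 has another length, and the row totals of the dogs were closely correlated under it. No coordinates were used.

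Cells with 500 to 20000 UMIs and at most 10% mitochondrial UMIs were kept (7096, 8454, 8109 and 8250 cells in dogs 1 to 4), and no doublet caller was run. UMI counts were summed per dog and cell set, as cells are not replicates, and tested with edgeR 4.0.16 (TMM, filter on low counts, quasi-likelihood test, dog as replicate block, Benjamini-Hochberg adjustment). The sums of a dog come from 1 library, which pairs them. The SE of a log2 fold change, also for the markers, is its absolute value divided by the square root of the test's F statistic. The fit was tested on simulated data. DESeq2 1.42.0, other scaling, filter, depth, KLRK1 threshold, clone handling and comparator, and leaving out each dog, were alternatives, of which 1 cell per clone and clones without CD8A cells were chosen after seeing the data.

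The cells, markers and gene lists were chosen with earlier results of these data known. Named genes are KLRK1, GZMK, CCR9 and TBX21, members of the lists, and the 12 genes at each end of both comparisons (5 for the difference of contrasts) among those with a symbol, adjusted p under 0.05, 1 direction in all 4 dogs by CPM and at least 20 CPM in the higher set. Of 208 listed symbols 26 were not matched. Some results, among them those of a few list members counted in the lists, are not reported here.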

Additional observations from a re-analysis of the deposited data

Results flagged for a closer look

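In 6 of 99 groups of 4 dogs examined, 1 dog stood apart from the other 3 by more than Dixon's 95% critical value, where chance gives about 1 in 20. Within the KLRK1+ CD4+ cells dog 1 stood apart with 80.6 CPM of RGS10, 56.4 CPM of TSPAN5, 80.6 CPM of CTPS1, 48.4 CPM of EFHC2 (each its group's highest value) and 40.3 CPM of CD40LG (the lowest value), and these values rest on 25 cells. Dog 4 stood apart with 128 CPM of CXCR3, the highest value.

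The KLRK1 contrast differed between CD4+ and CD8A+ cells, by the edgeR test of the difference itself, for KLRD1 (log2 difference 2.75), EOMES (2.72), CCL5 (2.71), CCL4 (1.99), ADGRG1 (1.90), TXK (-1.75), PIK3R1 (-0.99) and RGS1 (-0.81). None of these 8 passed without dog 2 or without the dog as a block. Without dog 3, KLRD1, EOMES, CCL4, ADGRG1, PIK3R1 and RGS1 did not pass either. PIK3R1 and RGS1 also did not pass without dog 1, nor ADGRG1 in cells with exactly 1 TRB or with 1 cell per TRB clone.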

How the results depend on the processing

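Of 82 genes named against KLRK1- CD4+ cells, 987 of 1120 values under alternatives kept direction and side of the threshold, 132 no longer passed and 1 reversed (ICOS, -0.058 with cells matched on UMIs). Against KLRK1+ CD8A+ cells (59 genes) 656 of 697 did and 41 no longer passed, and for the difference of contrasts (8 genes) 66 of 96 did and 30 no longer passed.

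Without the replicate block (dog) that pairs the sets, the 984 genes against KLRK1- CD4+ cells became 29 (12 higher, 17 lower, or 41.4% higher against 52.4%), the 1251 against KLRK1+ CD8A+ cells became 670 and the 14 of the difference of contrasts became 0. Of the 82, 59 and 8 named genes, 65, 8 and 8 passed with the block but not without it.

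With DESeq2 the first 2 counts were 371 and 777, and with cells matched on UMIs 407 and 804. With at least 2 KLRK1 UMIs the second was 771, and with 1 cell per TRB clone, chosen after seeing the data, 700. The third was 31 with 1 cell per TRB clone and 38 without a filter on low counts. Leaving out each dog gave 486 to 1031, 880 to 1350 and 1 to 24 genes.

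The difference in expanded share was 31.2 to 48.0 points against KLRK1- CD4+ cells and -24.2 to -1.38 points against KLRK1+ CD8A+ cells when dogs were left out. The CD8A share among clone mates reversed (-1.59 to 4.46 points without a dog) and was 3.36 points when each clone counted once. The difference in CCR9 among CD4+ mates was -1.27 points, -4.42 to 1.61 points without a dog and 11.3 points when each clone counted once. The causes were not tested. Dog 1 has 25 KLRK1+ CD4+ cells, in which 3 UMIs make 24.2 CPM.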
